A study of Mus musculus with 56 samples.

Results

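The 4 glycoprotein hormone subunit genes of the pituitary, *Cga*, *Lhb*, *Fshb* and *Tshb*, were followed through 56 single-cell transcriptomes. They were taken by name and made up 4 of the 47069 gene identifiers measured, each with 1 row. The cells came from untreated primary pituitary cultures of female C57BL/6 mice aged 10 to 12 weeks and at random stages of the cycle, with the glands of 5 animals pooled for a sample and 4 days of culture. They were detached with trypsin, stabilized in RNA-Best, a buffer that preserves intact cells and their RNA, passed through a 10-µm filter and captured on the small-cell C1 chip, and the cDNA was amplified with SMART-Seq V4. No culture or animal was named for a cell, so that the 56 cells counted as 1 sample, no test was possible, and each interval below is an exact Clopper-Pearson or Poisson 95% interval that covers counting error only. A cell is named by its plate well.

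Luteinizing hormone (LH), follicle-stimulating hormone (FSH) and thyroid-stimulating hormone (TSH) are heterodimers. Each joins the common alpha subunit, encoded by *Cga*, to a beta subunit of its own, encoded by *Lhb*, *Fshb* or *Tshb*, and the beta subunit sets which receptor is bound. Gonadotropes make LH and FSH under gonadotropin-releasing hormone, thyrotropes make TSH under thyrotropin-releasing hormone, and alpha subunit is generally made in excess of the beta subunits, whose supply limits the dimer.

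The genes lie on 4 chromosomes, with positions from GENCODE M21 on GRCm38, the assembly also called mm10 that the submitters named. *Cga* (ENSMUSG00000028298.10, chromosome 4, 34893779 to 34907370) and *Lhb* (ENSMUSG00000100916.1 in the deposited table, chromosome 7, 45420820 to 45421897) are on the plus strand, and *Fshb* (ENSMUSG00000027120.6, chromosome 2, 107056140 to 107059656) and *Tshb* (ENSMUSG00000027857.10, chromosome 3, 102775465 to 102782718) on the minus strand. M21 lists *Lhb* under a later version of its identifier, so the model counted by the authors may differ from the one used here for length. Merged exons span 954 bases in *Cga*, 678 in *Lhb*, 1600 in *Fshb* and 4555 in *Tshb*. The *Tshb* value comes mostly from a transcript of 4396 bases that retains an intron, whereas its longest protein-coding transcript has 605 bases.

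The 250 bases before each RefSeq transcription start (GRCm38.p6) are printed because the 4 genes share a protein partner and a tissue but, as shown further on, not a level. Capitals mark matches, on either strand, to 8 motifs. The TATA box was read as TATAAA, the half-site of nuclear receptors as AGGTCA, and its extension bound by steroidogenic factor 1, which contains the half-site, as AAGGTCA. The core of EGR factor sites was read as CGCCCCC and that of a class of homeobox factors as GATTA. The core of GATA factor sites was read as AGATAA, the E box tested was CAGCTG, and the cAMP response element was read as TGACGTCA.
Cga, chr4:34893529-34893778, plus strand: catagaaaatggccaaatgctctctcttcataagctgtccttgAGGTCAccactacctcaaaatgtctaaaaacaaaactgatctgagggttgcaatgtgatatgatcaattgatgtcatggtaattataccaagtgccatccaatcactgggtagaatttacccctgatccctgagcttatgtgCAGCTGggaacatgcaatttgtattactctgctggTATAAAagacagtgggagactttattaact
Lhb, chr7:45420696-45420945, plus strand: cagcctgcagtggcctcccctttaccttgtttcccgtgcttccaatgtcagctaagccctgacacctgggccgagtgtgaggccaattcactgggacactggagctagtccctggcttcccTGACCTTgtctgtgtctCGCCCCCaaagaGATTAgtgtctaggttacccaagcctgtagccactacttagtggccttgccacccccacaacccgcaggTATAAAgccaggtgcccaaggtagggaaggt
Fshb, chr2:107059652-107059901, minus strand: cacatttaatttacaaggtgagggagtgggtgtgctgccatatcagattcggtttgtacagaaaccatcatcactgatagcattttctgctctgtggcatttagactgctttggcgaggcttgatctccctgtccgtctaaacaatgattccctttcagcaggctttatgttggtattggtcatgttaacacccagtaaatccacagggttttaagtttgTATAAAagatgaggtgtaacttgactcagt
Tshb, chr3:102782715-102782964, minus strand: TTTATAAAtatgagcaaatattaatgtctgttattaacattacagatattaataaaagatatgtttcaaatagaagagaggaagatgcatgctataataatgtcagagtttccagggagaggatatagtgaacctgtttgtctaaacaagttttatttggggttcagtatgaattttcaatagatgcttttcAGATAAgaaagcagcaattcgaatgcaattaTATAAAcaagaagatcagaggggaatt
TATAAA stood 22 to 31 bases before the start in all 4 genes, against a match anywhere in the window in 12.4% of 32851 promoters of this length, and *Tshb* had 2 further, overlapping matches at its far end. AGGTCA was matched in *Cga* and *Lhb* and in 14.0% of all promoters. In *Lhb* it was extended to AAGGTCA on the opposite strand (4.08% of promoters) at bases -129 to -123, and was followed within the window by CGCCCCC at -112 to -106 (14.8% of promoters) and GATTA at -100 to -96 (19.8% of promoters). CAGCTG was matched in *Cga* alone of the 4 (13.0% of promoters) and AGATAA in *Tshb* alone (9.99% of promoters). TGACGTCA was in none of the 4 windows and in 1.55% of all promoters. These matches describe letters only.

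The libraries held 357 to 12563266 gene counts, with a median of 711525, and 10 were under 100000. ERCC spike-ins, synthetic RNAs added to each chamber, gave 0.144% to 74.9% of all counts. Cells B6 and H10 had under 2000 gene counts. C10 and C11 were alike in depth, with 451717 and 453587 gene counts, and had 56958 and 75279 counts of *Prl*. They may be near copies of each other, which was not tested. Cells H4 and F6 carried all 5 endothelial markers examined (*Pecam1*, *Cdh5*, *Kdr*, *Plvap*, *Emcn*) at 1 CPM or more. Plate columns 1 to 3 and 7 to 9 (29 cells, median 1050009 gene counts) and columns 4 to 6 and 10 to 12 (27 cells, median 234987) differed in depth and are given apart where a value depends on them. Levels are in counts per 1000000 gene counts (CPM), and a gene was called detected at 1 CPM or more.

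*Cga* reached 1 CPM in 50 of 56 cells (89.3%, interval 78.1% to 96.0%). Its lowest level was 0 CPM, its median 44.3 CPM and its highest 57530 CPM, in E3. *Cga* exceeded 100 CPM in 23 cells and 1000 CPM in 18 cells, and its SD over cells was 4.61 on the log2(CPM + 1) scale. The transcript was thus widespread at a trace level and abundant in a minority of cells. After E3 the highest *Cga* levels were 41215 CPM in H2, 11038 CPM in G7, 9566 CPM in A2, 9068 CPM in A10, 6220 CPM in D5, 5996 CPM in H7, 4222 CPM in H3, 4149 CPM in H10 and 3889 CPM in F3. The value in H10 rested on 7 counts. In raw counts *Cga* was more concentrated than in CPM, since the deepest cell, H2, held 517793 of the 645531 *Cga* counts (80.2%).

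*Lhb* reached the same limit in 36 cells (64.3%, interval 50.4% to 76.6%), 12 of them over 100 CPM and 4 over 1000 CPM, and its median over the 56 cells was 5.35 CPM. E3 stood alone with 38481 counts of *Lhb* (59401 CPM). The next cells were F4 with 1643 CPM, H7 with 1584 CPM, G7 with 1490 CPM and A9 with 988 CPM, a group of similar level that lay far below E3. Of the 46 cells with any *Lhb* count, 19 had 5 counts or fewer.

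*Fshb* was found in 2 cells (3.57%, interval 0.435% to 12.3%). E3 carried 1596 of its 1597 counts (2464 CPM, interval 2344 to 2588 CPM), and B3 carried the remaining count (2.23 CPM, interval 0.0566 to 12.4 CPM). The other 54 cells had 0 counts. A floor of 3 counts corresponds to 0.239 CPM in H2 and 1.41 CPM in F4, both of which had *Lhb*, so that in these cells *Fshb* at even a small part of the E3 level would have been seen.

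*Tshb* was detected in 23 cells (41.1%, interval 28.1% to 55.0%) but at no more than 49.8 CPM. That maximum, in H2, rested on 626 counts, and the levels in C8 (38.3 CPM, 41 counts) and H12 (32.4 CPM, 121 counts) came next. A7 had 36 counts in a deep library and 4.94 CPM. The levels that followed H12, 16.3 CPM in A3 and 15.0 CPM in H6, rested on 3 counts each. Of the 33 cells with any *Tshb* count, 28 had 5 or fewer, so its detection in most cells came from a handful of reads.

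**Figure D1:**
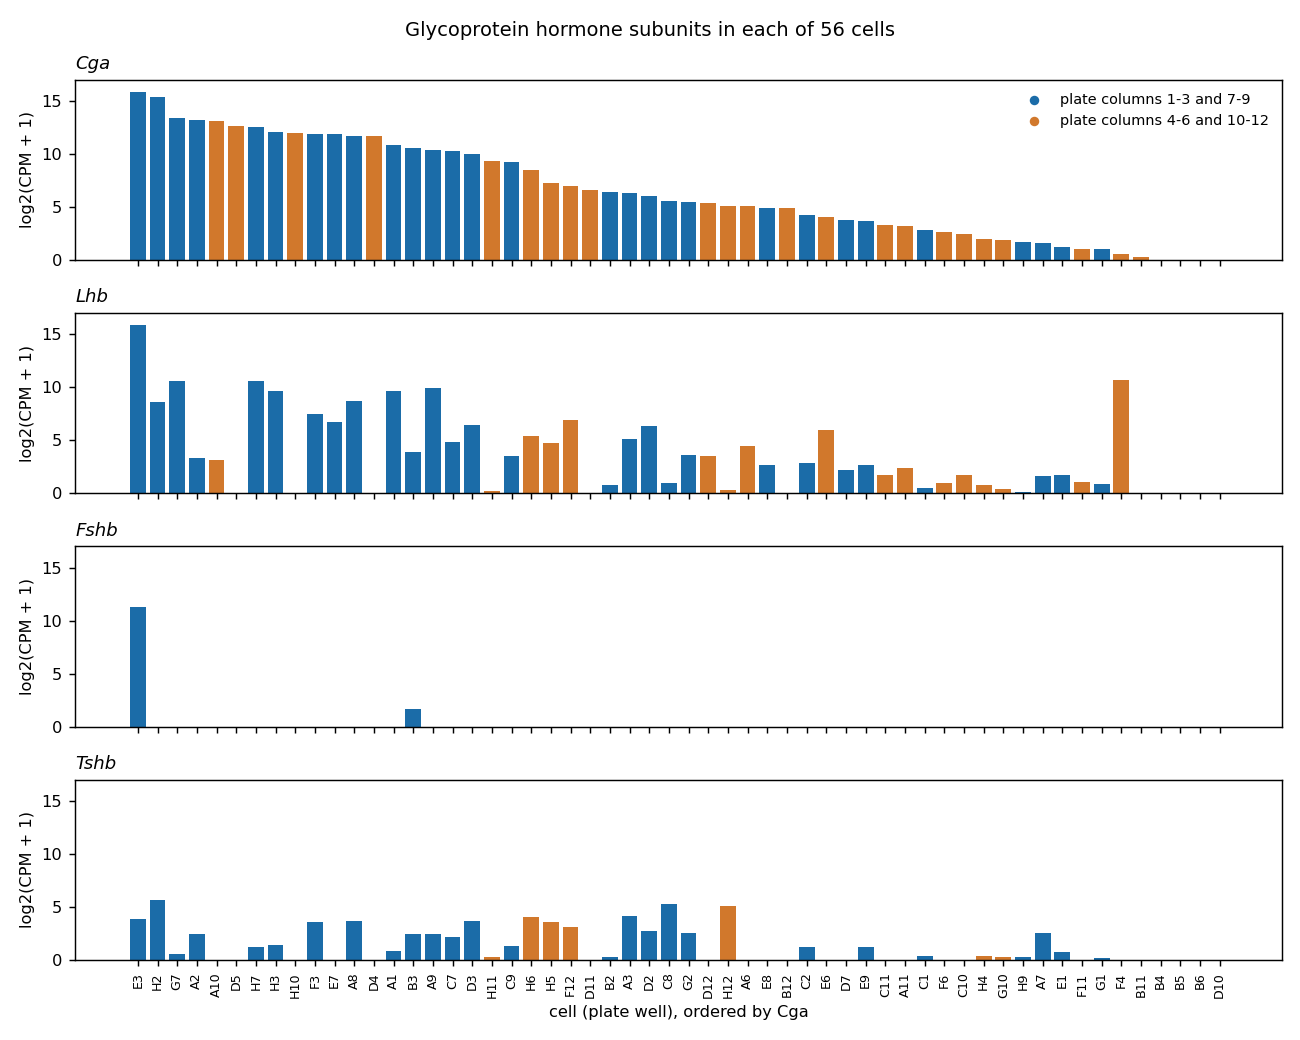
Level of each subunit, as log2(CPM + 1), in the 56 cells ordered from left to right by *Cga*; 1 bar per cell, coloured by the set of plate columns. *Cga* falls steadily from 57530 CPM in E3 to 0, *Lhb* is uneven with F4 standing out at low *Cga*, *Fshb* has 1 tall bar in E3, and *Tshb* stays below 50 CPM.

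Divided by merged exon length, the mean level over the 56 cells was 3235 CPM per kb for *Cga* (SD 9937), 1801 for *Lhb* (SD 11690), 27.5 for *Fshb* (SD 206) and 1.02 for *Tshb* (SD 2.13). Divided by the longest protein-coding transcript instead, the mean *Tshb* level was 7.69 CPM per kb (SD 16.1). E3 dominated the means of *Lhb* and *Fshb*. The medians of the level per kb were 46.5 for *Cga*, 7.89 for *Lhb*, 0.0536 for *Tshb* and 0 for *Fshb*, so *Tshb* and *Fshb* changed places between mean and median. With levels from 0 to the maximum in each gene, the spread over cells exceeded the distance between neighbours in either order.

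To determine which subunits occurred together, cells were counted by the combination detected. *Cga* with *Lhb* and *Tshb* was the most frequent combination (19 cells), followed by *Cga* with *Lhb* (14 cells) and *Cga* alone (13 cells). All 4 subunits were detected in 2 cells, E3 and B3, the latter through its single *Fshb* count. *Cga* with *Tshb* and no *Lhb* was seen in 2 cells, C8 and H12, and *Lhb* without *Cga* in 1 cell, F4. None of the 4 was detected in B4, B5, B6, B11 or D10.

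Beta subunits were found almost entirely in cells that also held *Cga*, which was itself detected in most cells. *Cga* was detected in 35 of 36 cells with *Lhb* (97.2%, interval 85.5% to 99.9%), in 23 of 23 with *Tshb* (interval 85.2% to 100%) and in both cells with *Fshb*, against 89.3% of all cells. The intervals for *Lhb* and for *Tshb* included this share of all cells. In the other direction *Lhb* was detected in 70.0% of the 50 cells with *Cga*, *Tshb* in 46.0% and *Fshb* in 4.00%, close to their shares among all 56 cells of 64.3%, 41.1% and 3.57%. *Lhb* and *Tshb* were detected together in 21 cells, which were 58.3% of the cells with *Lhb* and 91.3% of those with *Tshb*.

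*Cga* with at least 1 beta subunit was detected in 37 cells (66.1%, interval 52.2% to 78.2%) at 1 CPM, and the combination thinned out as the limit was raised. At 10 CPM it was 25 cells, at 100 CPM 11 cells and at 1000 CPM 3 cells (E3, G7 and H7). *Cga* alone was found in 13 cells at 10 CPM, 12 cells at 100 CPM and 15 cells at 1000 CPM. *Lhb* and *Tshb* together with *Cga* fell from 21 cells at 1 CPM to 8 at 10 CPM and to none at 100 CPM. No cell had *Tshb* at 100 CPM.

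The 13 cells with *Cga* and no beta subunit detected were of unlike kinds. Of these, 8 had 2 to 8 beta subunit counts that fell below 1 CPM in deep libraries. The other 5 (B12, D4, D5, D11 and H10) had 0 beta counts. D5, with 296 *Cga* counts and 0 beta counts (6220 CPM of *Cga*), had only 47588 gene counts, and 3 counts there would be 63.0 CPM. B12 had 197 *Cga* counts (28.0 CPM), 0 beta counts and 7043039 gene counts, a depth at which 3 counts are 0.426 CPM. The 5 cells with no subunit detected also differed: B4, B5 and B6 had 357 to 26952 gene counts, whereas D10 had 0 counts of all 4 genes among 3030870.

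**Figure D2:**
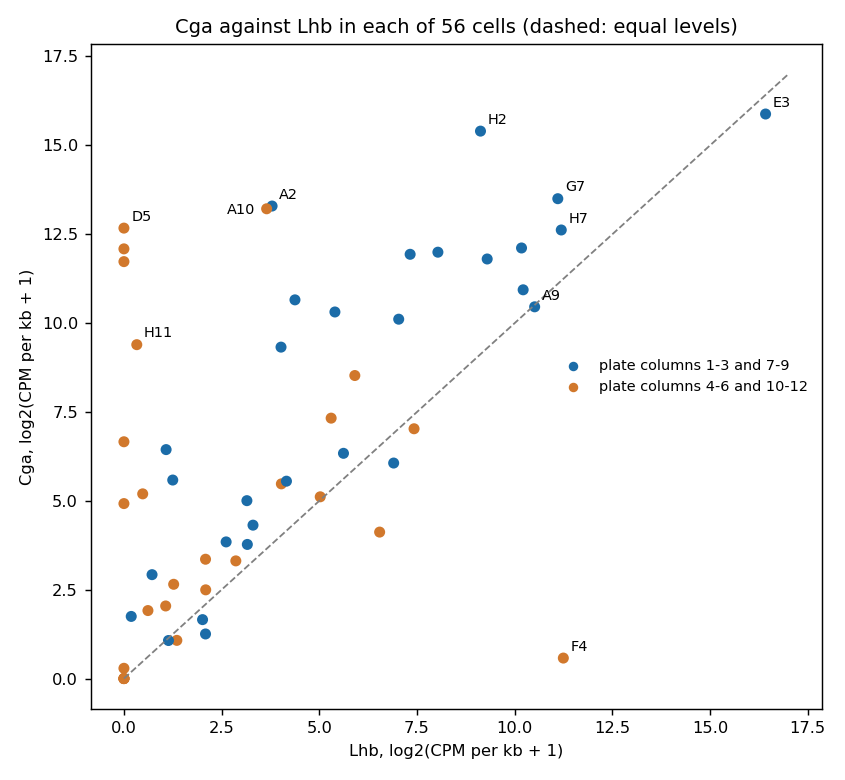
*Cga* against *Lhb* in the 56 cells, both as log2(CPM per kb + 1); 1 point per cell, coloured by plate columns, with a dashed line at equal levels. Most points lie above the line, E3 lies just under it at the top, and F4 lies at high *Lhb* with almost no *Cga*.

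Alpha and beta subunits were compared within each cell on the scale of CPM per kb. Among the 51 cells with any subunit detected, *Cga* was above the sum of the 3 beta subunits in 41 (80.4%, interval 66.9% to 90.2%). Over the 37 cells with both kinds detected, the median ratio of *Cga* to summed beta subunits was 2.84, a log2 ratio of 1.51 (SD 2.74 over cells), with quartiles of 0.51 and 2.56 on the log2 scale. *Cga* was at least 10-fold above the betas in 8 of the 37 cells and at least 100-fold above in 2. The highest beta subunit per kb was *Lhb* in 35 of these cells and *Tshb* in 2, so the ratio was in practice that of *Cga* to *Lhb*. With protein-coding lengths *Tshb* was the highest beta in 3 cells, A7, C8 and H12.

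Cells rich in *Cga* had very different shares of *Lhb*. E3 carried 0.688 times as much *Cga* as *Lhb* per kb (interval 0.679 to 0.698), from 37269 and 38481 counts, so that its interval lay wholly below 1. These ratios rest on the merged exon length of *Cga*, 954 bases. Its longest protein-coding transcript has 707 bases, and that of *Lhb* 678, the same as its merged exons. With that length every ratio to *Lhb* would be higher. The *Lhb* model used for length starts at 45420820, before the RefSeq start at 45420946. A length counted from the RefSeq start would lower every ratio. The intervals cover neither choice. H7 carried 2.69 times as much *Cga* (interval 2.60 to 2.79), H3 3.83 times (3.66 to 4.02) and G7 5.27 times (5.13 to 5.40). The intervals of these 3 cells, which cover the counting of reads but not their amplification, did not overlap. Other cells lay on both sides of these 3, such as A1 with 1.65 times and F3 with 15.6 times as much *Cga*.

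In H2 the *Cga* level per kb was 77.6 times that of *Lhb* (interval 75.4 to 79.8). A2 and A10 had still higher ratios, 781 (interval 216 to 6451) and 822 (interval 147 to 32478), which rested on 2 and 1 *Lhb* counts. H11 had 3686 counts of *Cga* and 1 each of *Lhb* and *Tshb*, under the limit of detection for both betas. Its ratio of *Cga* to summed betas per kb was 2280 on those 2 beta counts, so that among cells rich in *Cga* the alpha excess ran from none in E3 to that value.

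F4 had the reverse composition. It held 3506 counts of *Lhb* (1643 CPM, interval 1589.5 to 1699 CPM) and 1 count of *Cga* (0.469 CPM, interval 0.0119 to 2.61 CPM), with 0 counts of *Fshb* and *Tshb*. Its *Lhb* level was the second highest of the 56 cells, while its *Cga* level was below those of 50 others. The library had 2133329 gene counts.

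Over the 35 cells with *Cga* and *Lhb* both detected, the ratio of the levels per kb had a median of 2.72 and ran from 0.178 in E6 to 822 in A10. Counting error alone was large in many: the interval lay above 1 in 18 cells, below 1 in 2 (D2 and E3) and included 1 in 15. These numbers of cells hold for merged exon lengths only, since the shorter protein-coding length of *Cga* would raise every ratio and a shorter *Lhb* would lower it. E6, the lowest, had 1 count of *Cga* and 4 of *Lhb*. Both genes had at least 5 counts in 25 of the 35 cells.

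**Figure D3:**
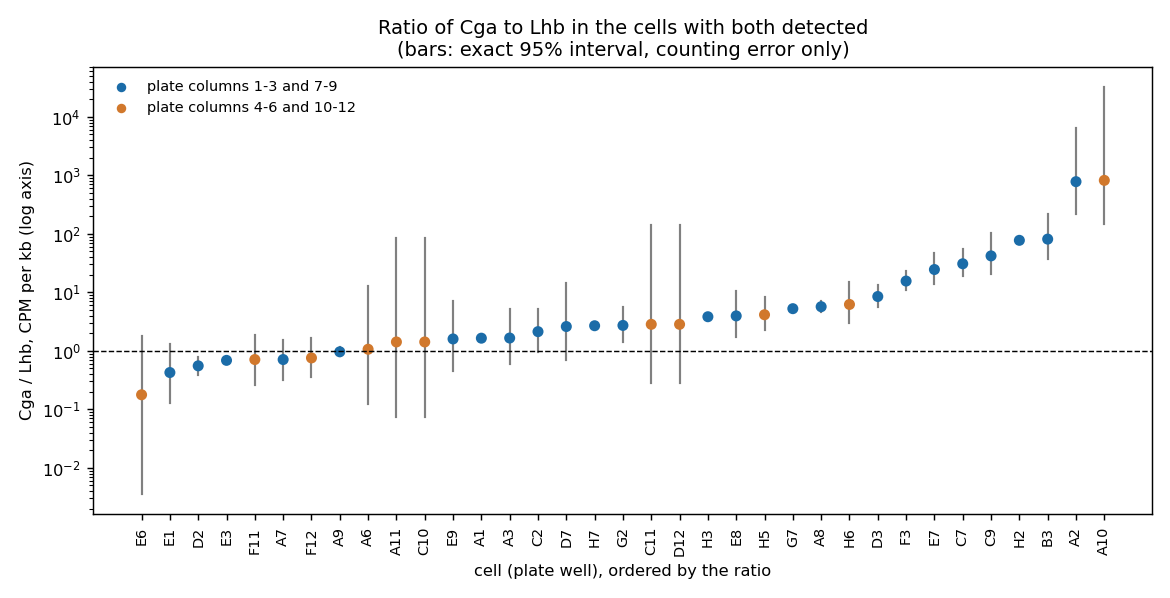
Ratio of *Cga* to *Lhb*, in CPM per kb on a log axis, for the 35 cells with both detected, ordered by the ratio; points are coloured by plate columns, bars are exact 95% intervals for counting error, and the dashed line marks a ratio of 1. With merged exon lengths, D2 and E3 have intervals wholly below 1, 18 cells have intervals wholly above it, and the bars are narrow in cells such as G7, H7 and H2.

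Over all 56 cells, *Cga* and *Lhb* on the log2(CPM + 1) scale had a Spearman rho of 0.54 and a Pearson r of 0.59, and r was 0.52 without the 2 cells farthest from the median of *Cga*. The relation was not alike over the plate. The rho was 0.83 over the 29 cells of plate columns 1 to 3 and 7 to 9 and 0.19 over the 27 cells of the other columns, and in the latter 12 cells had *Lhb* detected. The cells were treated as 1 sample and differed in depth: over the 46 cells that passed 100000 gene counts and 1000 genes, *Cga* had a rho of -0.47 with log2 gene counts and of 0.52 with the spike-in percentage, and *Lhb* had -0.53 and 0.57. The part of depth in the relation was not tested. On few counts, *Tshb* had a rho of 0.43 with *Cga* over the 56 cells and of 0.36 and 0.25 within the sets of columns. With *Lhb* it had 0.51 over the 56 cells and 0.38 and 0.30 within the sets.

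Levels of *Cga*, *Lhb* and *Tshb* were lower in the second set of plate columns. Median *Cga* was 610 CPM in columns 1 to 3 and 7 to 9 (range to 57530 CPM) and 15.6 CPM in columns 4 to 6 and 10 to 12 (range to 9068 CPM). Median *Lhb* was 13.4 and 0.744 CPM. *Cga* was detected in 29 of 29 and 21 of 27 cells, *Lhb* in 24 and 12, *Tshb* in 19 and 4, and *Fshb* in 2 and 0. Among the cells that passed 100000 gene counts and 1000 genes, the medians of *Cga* were 610 CPM (29 cells) and 8.51 CPM (17 cells). The labels do not say what the columns stand for beyond position.

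Wells in the plate column of E3 were high within their set. In column 3 the other 5 cells had *Lhb* at 13.4 to 783 CPM (median 88.0) and *Cga* at 76.1 to 4222 CPM (median 1535). In the 19 cells of columns 1 to 3 and 7 to 9 outside column 3 and row E, median *Lhb* was 10.3 CPM and median *Cga* 81.9 CPM, with ranges that overlapped those of column 3. Row E gave no such picture, with *Lhb* at 2.20 to 108 CPM in 4 cells. B3, which held the only *Fshb* count outside E3, is in column 3. H2, which held 80.2% of all *Cga* counts, is among the 19 cells, and its own column and row were not examined in this way. The labels give no library indexes, and whether reads passed between wells of a column, with a part in the low *Lhb*, *Cga* and *Fshb* levels, was not tested.

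Subunit counts were also set against the spike-ins, a scale that does not depend on the total of the other genes. It assumes that each chamber received the same amount of spike-in. *Cga* had a median of 1.51 counts per 1000 ERCC counts (quartiles 0.120 and 9.89), and H2 held the maximum of 4718, followed by G7 with 1337 and E3 with 325. On this scale H2 carried more *Cga* than E3, whereas in CPM E3 was ahead. Of the 10 cells highest in CPM, 6 were among the 10 highest per spike-in. These included H10, at 167 counts per 1000 ERCC counts, which rested on 7 counts of *Cga* and 42 ERCC counts. A2, A10, D5 and F3 left and C7, E7, H11 and H12 entered. A2 fell furthest among the cells named, to 5.38 counts per 1000 ERCC counts.

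*Lhb* per 1000 ERCC counts was 335 in E3, 186 in F4 and 180 in G7, with a median of 0.114, so the distance between E3 and the next cells was much smaller than in CPM. *Fshb* reached 13.9 in E3 and 0.0251 in B3. *Tshb* was highest in H12 with 22.5, followed by C8 with 11.4 and H2 with 5.70, an order opposite to that of its raw counts in H2 and H12. A3, next after H12 by CPM for *Tshb*, had 0.00959. Beside *Tshb*, H12 held 127 counts of *Cga* and C8 held 48.

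**Figure D4:**
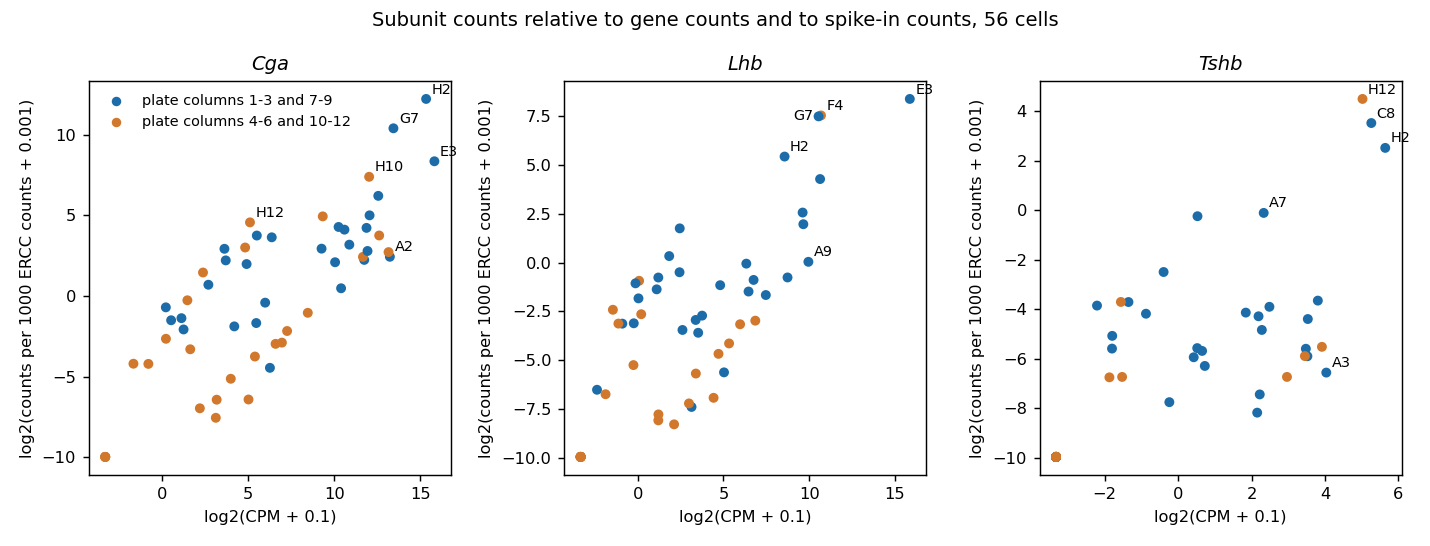
Level of *Cga*, *Lhb* and *Tshb* by gene counts (horizontal axes, log2(CPM + 0.1)) and by spike-ins (vertical axes, log2 of counts per 1000 ERCC counts + 0.001) in 56 cells, coloured by plate columns; cells with 0 counts lie at the lower left. H2 lies above E3 for *Cga* by spike-ins, and H12, C8 and H2 stand apart for *Tshb*.

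Of the 11 genes reported as gonadotrope regulators, 2 were detected in 28 or more cells (*Egr1*, the early response factor that acts on *Lhb*, in 43, and the homeobox factor *Pitx1* in 30), 7 in fewer and 2 in none (*Lhx4* and *Nr0b1*). Among all 24139 genes that reached 1 CPM in any cell, 5164 (21.4%) were detected in 28 or more. *Gnrhr*, the receptor for gonadotropin-releasing hormone, was detected in 3 cells, at 3060 CPM in E3, 154 CPM in H2 and 63.8 CPM in F4. All 3 cells carried *Lhb* above 300 CPM, whereas H7, G7 and A9, which had more *Lhb* than H2, had *Gnrhr* at 0, 0.223 and 0 CPM.

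The 3 cells with *Gnrhr* differed in the other factors. *Nr5a1*, which encodes steroidogenic factor 1, was at 30.0 CPM in F4, 1.54 CPM in E3 and 0 in H2. *Lhx3*, a LIM homeobox factor of pituitary development, was highest of all cells in F4 with 279 CPM and was 21.9 CPM in H2 and 0 in E3. *Isl1*, another LIM homeobox factor, was highest in H2 with 187 CPM and 0 in both others. *Foxl2*, a factor known to act on *Fshb*, and *Gata2* were at 0 in all 3 cells.

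The 5 markers set for gonadotropes were *Gnrhr*, *Lhb*, *Fshb*, *Cga* and *Nr5a1*. E3, H2 and F4 were named for their subunits and then picked out by *Gnrhr*, so its presence in them was fixed in advance. Only *Nr5a1* took no part in choosing them. It was at 1 CPM or more in E3, where it was 1 count, and in F4, but not in H2. Hormones of other lineages were present in these cells: *Prl* was 131748 CPM in E3, 40662 CPM in H2 and 2171 CPM in F4, *Gh* was 71095, 1014 and 5384 CPM, and *Pomc* was 13807, 59274 and 33.8 CPM. This was not particular to them. *Prl* and *Gh* were at 100 CPM or more in all 56 cells and *Pomc* in 52, with medians of 208371, 11494 and 5076 CPM. Only *Gh* in E3 and *Pomc* in E3 and H2 lay above these medians.

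For TSH, the thyrotropin-releasing hormone receptor *Trhr* was detected in 1 cell, E6 (15.6 CPM, which is 1 count in this shallow library), which had 0 counts of *Tshb*. The interval for that 0 reached 57.7 CPM, above the highest *Tshb* level of any cell, so E6 could not show whether *Tshb* was absent. *Pou1f1*, the lineage factor of thyrotropes, lactotropes and somatotropes, was at 126 CPM in C8, 119 CPM in H12 and 9.63 CPM in H2. Its highest level was 695 CPM, in H11. C8 and H12 were also rich in *Prl*, at 291391 and 507627 CPM, and H2 had 40662 CPM, beside a median of 208371 CPM over all cells. *Dio2*, the deiodinase that activates thyroid hormone, was at 0 in C8, 37.0 CPM in H12 and 250 CPM in H2, and *Thrb*, a thyroid hormone receptor, at 82.2, 55.7 and 0.796 CPM. *Thrb* was highest in B12, at 274 CPM. *Gata2* was detected in 1 of the 56 cells and was 0 in these 3. These cells were named for their *Tshb*, and *Pou1f1* was detected in 50 of 56 cells. Of the thyrotrope markers set, only *Trhr* and *Dio2* were left to tell them from the rest, and neither did. *Trhr* was 0 in all 3 cells, and *Dio2* was detected in 18 of 56 cells and was highest in C9, at 1129 CPM. Over the 10 thyrotrope regulators reported, 2 were detected in 28 or more cells (*Pou1f1* and *Thrb*) and 8 in fewer, beside 21.4% of all genes in 28 or more.

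**Figure D5:**
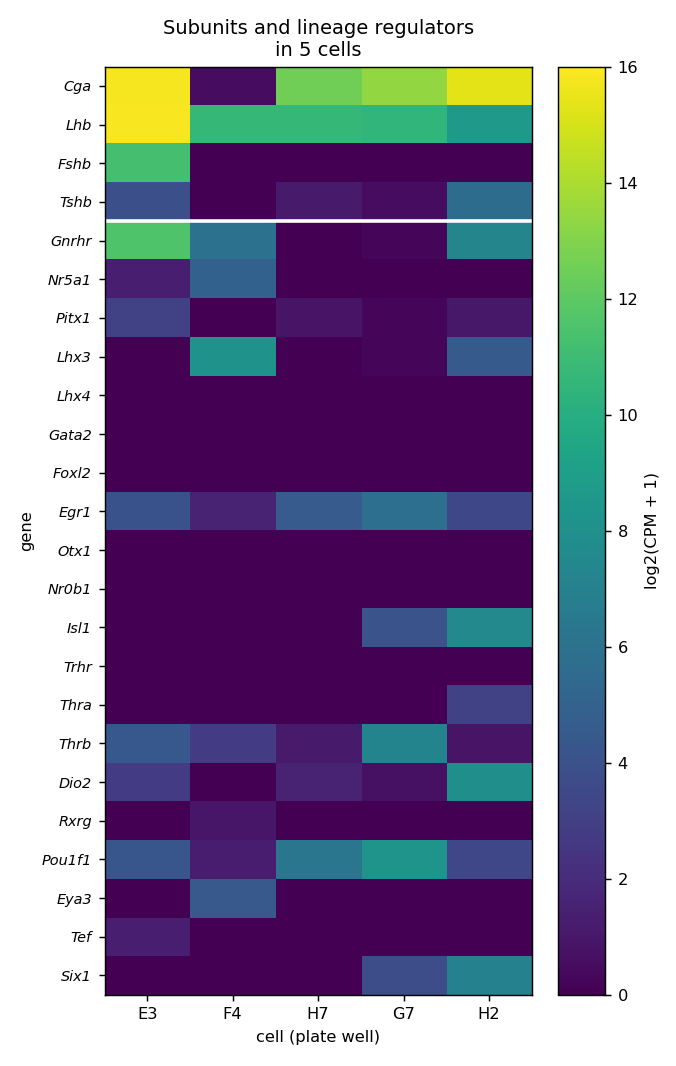
Levels, as log2(CPM + 1), of the 4 subunits (above the white line) and of the listed gonadotrope and thyrotrope regulators (below it) in 5 cells, E3, F4, H7, G7 and H2, that hold the most *Lhb* or *Cga*. *Gnrhr* is bright in E3 and present in F4 and H2 but not in H7 or G7, and F4 has *Lhx3* and *Nr5a1* beside *Lhb* with almost no *Cga*.

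Genes of the activin and inhibin system, which raises or restrains *Fshb* in gonadotropes, were then examined. Of 12 genes, 1 (*Smad4*, the common mediator, 30 cells) was detected in 28 or more cells, 10 in fewer and *Fst*, the gene of the activin antagonist follistatin, in none. Among all genes 21.4% were detected in 28 or more cells, a larger share than in this list. The median gene of the list was detected in 10 cells, and the median of all genes in 6. *Inhbb*, the activin B subunit, was detected in 4 cells and was 0 in E3, the cell with *Fshb*. *Inha*, the inhibin alpha subunit, was 62.8 CPM in F4 and 0 in E3 and H2. *Tgfbr3l*, a coreceptor for inhibin B in gonadotropes, was detected in F4 alone of the 56 cells, at 43.1 CPM.

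The receptors of the hormones themselves were nearly absent. *Lhcgr* had 0 counts in all 56 cells, *Fshr* reached 1.91 CPM in G2 only and *Tshr* 19.1 CPM in D3 only. *Gpha2* and *Gphb5*, which encode the subunits of the further glycoprotein hormone thyrostimulin, had 0 counts in all cells.

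LH and TSH carry sulfated sugars made by an N-acetylgalactosaminyltransferase (*B4galnt3* or *B4galnt4*) and a sulfotransferase (*Chst8* or *Chst9*). *Chst8* was detected in 47 cells with a median of 24.6 CPM, and its level was 123 CPM in F4, 65.6 CPM in H2, 27.8 CPM in E3 and highest, 337 CPM, in A7. *B4galnt3* was detected in 2 cells, *B4galnt4* in 7 and *Chst9* in 2, and all 3 were under 1 CPM in E3, H2 and F4. The sulfotransferase transcript was therefore far more widespread than those of the transferases that act before it.

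The 9 genes of hormone storage and protein folding were each detected in 28 or more cells, beside 21.4% of all genes. *Scg2*, a granin of secretory granules, reached its maximum of 12252 CPM in E3 and was 7673 CPM in F4 and 5811 CPM in H2, against a median of 835 CPM over the 56 cells. *Chga*, chromogranin A, was 683 CPM in H2, 447 CPM in F4 and 81.8 CPM in E3, beside a median of 76.7 CPM. *Hspa5* and *Hsp90b1*, chaperones of the endoplasmic reticulum, were 9627 and 3843 CPM in G7, above their medians of 822 and 317 CPM, and *Canx*, a lectin chaperone for glycoproteins, was highest in H7 with 1158 CPM. Other genes of the list went the other way. In H7 *Hspa5* was 69.7 CPM, and *Calr*, *P4hb* and *Pdia3* were 10.6, 12.4 and 15.3 CPM, beside medians of 308, 275 and 261 CPM. In E3 these genes, *Canx* (7.72 CPM) and *Chgb* (329 CPM, median 916 CPM) were also below their medians. *Hsp90b1* was above its median in both cells.

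Genes with levels most like those of *Cga* were sought over these 46 deeper cells, among 5608 genes, by Spearman rho. The 5 nearest were *mt-Rnr2*, the mitochondrial large ribosomal RNA (0.71), *Lhb* (0.69), *Gm15266* (0.65) and the chemokine genes *Cxcl1* (0.64) and *Ccl2* (0.62), while the median over all genes was -0.15. For *Lhb* they were *Cga* (0.69), *Ccl5* (0.60), *Ubox5* (0.59), *mt-Rnr2* (0.59) and *Gm42826* (0.58), with a median over all genes of -0.12. *Lhb* was thus second for *Cga*, and *Cga* first for *Lhb*. Several of these genes also followed the spike-in percentage of the cell, with a rho of 0.67 for *mt-Rnr2*, 0.78 for *Gm15266* and 0.84 for *Gm42826*, and its part was not tested. *Prl* had a rho with *Cga* of -0.28 in plate columns 1 to 3 and 7 to 9 and 0.41 in the others, and with *Lhb* of -0.20 and 0.31. *Gh* had a rho with *Cga* of 0.35 and 0.54 in these sets, and with *Lhb* of 0.45 and 0.58. *Tshb* and *Fshb* reached 10 CPM in only 10 and 1 of these cells, and no nearest genes were sought for them.

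Reads of 3 of the genes could be shared with neighbours. Whether strand was used in counting is not given in the sources used here. *Lhb* overlaps the end of *Ruvbl2*, on the opposite strand, by 138 bases, and in the 10 cells with at least 100 *Ruvbl2* counts the *Lhb* count was 0 to 4744 with a median of 3.5. H2 and F4 were among these 10, with over 100 counts of both genes. B12, highest in *Ruvbl2* with 1929 counts, had 0 counts of *Lhb*, and E3 had 5 of *Ruvbl2*. *Cga* overlaps *Platr9*, also on the opposite strand, whose maximum of 384 counts was in H2, beside 517793 of *Cga*. *Tshb* lies within *Tspan2*, on the opposite strand, and E3 had 606 counts of *Tspan2* and 9 of *Tshb*, while H2 had 3 and 626. Over the 56 cells *Tshb* and *Tspan2* had a rho of 0.34, with a count of both in 16 cells. No subunit had a fractional count in any cell.

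Cells with markers of other types were examined for traces of the subunits. H4 and F6, in which the 5 endothelial markers summed to 8855 and 979 CPM (median of all cells 0.577 CPM), had *Cga* at 2.98 and 5.04 CPM and *Lhb* at 0.744 and 0.960 CPM, all from 3 to 21 counts. These levels lay below the medians of both genes. Markers of another type also occurred in cells rich in *Cga*. In A2 the stem or folliculostellate markers summed to 26077 CPM, all from *Cyp2f2*, with *Sox2* and *S100b* at 0, and 2 of 5 endothelial markers were at 1 CPM or more. In H7 *Emcn*, at 2040 CPM, was the only endothelial marker at 1 CPM or more. In E3, H2, F4 and G7 the 5 endothelial markers summed to 0.138 to 44.7 CPM and the 5 macrophage markers to 0.0796 to 1.54 CPM. The 4 globin genes used as red blood cell markers summed to 1592 CPM in E3, 323 CPM in F4, 130 CPM in G7 and 58.8 CPM in H2, beside a median of 58.4 CPM, and their part in the subunit levels was not tested. The stem or folliculostellate markers were at 49.0 CPM in G7, all from *Anxa1*, and under 0.1 CPM in the other 3 cells.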

How the data were processed

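Estimated counts for genes and spike-ins in the 56 cells, not scaled to depth, were deposited by the authors in 1 table. Of gene values above 0, 33.5% were not whole, since reads were divided between features. The submitters' processing notes name STAR 2.5.1b, featureCounts 1.5.0-p1 and mm10. Reads carried no molecular identifiers. The strand setting is not given in the sources used here.

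CPM was each gene's count per 1000000 gene counts, without the 92 spike-ins. Lengths were merged exons of GENCODE M21. Shares have exact Clopper-Pearson 95% intervals, single levels exact Poisson intervals, and a count of 0 a floor of 3 counts. Doublets were not called. The members, the gene lists and the split of the plate columns were chosen with earlier results of these data known. Genes named were the subunits, their overlapping genes, *Prl*, *Gh*, *Pomc*, the lists, the cell type markers and the 5 genes most alike to *Cga* and *Lhb* (at least 1 CPM in 20 cells and a mean of 10 CPM), and cells named were the 10 highest in *Cga*, the 5 highest in *Lhb* and in *Tshb* and all with *Fshb*; further cells were named after their values were seen. Some genes of the lists are not reported here. The likeness and thinning code was checked on simulated data. Promoters were from RefSeq on GRCm38.p6, and all 4 matched by symbol. Alternatives changed the detection limit, the depth, the cells, the length and the scale. Python 3.11.15, numpy 2.4.6, pandas 2.3.3, scipy 1.17.1 and matplotlib 3.10.9 were used.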

Additional observations from a re-analysis of the deposited data

How the results depend on the processing

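Of 72 alternatives for the shares and rho, 25 moved the value beyond its interval (0.1 for rho) and 47 did not. The detection limit moved most shares. At 1 count *Lhb* was detected in 82.1% of cells, *Tshb* in 58.9% and *Cga* with a beta subunit in 82.1%. At 10 CPM *Cga* was detected in 67.9%, *Lhb* in 42.9%, *Tshb* in 17.9% and *Cga* with a beta in 44.6%, and at 100 CPM in 41.1%, 21.4%, 0% and 19.6%. Thinned to 100000 gene counts, *Cga* was expected to keep at least 1 count in 73.9% of the 46 deeper cells. At that depth 1 count is 10 CPM, so this value stands beside the 67.9% of 56 cells at 10 CPM. In plate columns 1 to 3 and 7 to 9 the shares were 100% for *Cga*, 82.8% for *Lhb*, 65.5% for *Tshb* and 86.2% for *Cga* with a beta, and in the other columns 77.8%, 44.4%, 14.8% and 44.4%, with 0% for *Fshb*. The rho of *Cga* and *Lhb* was 0.83 and 0.19 in these sets, 0.69 in the 46 deeper cells and 0.65 in the 46 cells with a count of both. The cause of these shifts was not tested.

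*Cga* was above the summed betas in 77.8% to 86.3% of cells under 10 alternatives, and the median log2 ratio was 1.01 to 1.95 under 14, including the length of the longest protein-coding transcript and leaving out E3 or H2, which were chosen after seeing the data, as was leaving out F4, or B6 and H10, for other values. Median *Cga* per 1000 ERCC counts was 5.38 in the first set of columns, 0.127 in the other, 3.34 in the deeper cells and 0.79 with the 10% of cells richest in genes left out. Libraries under 100000 gene counts could not show *Tshb* at its usual level. No paired analysis was possible because there was 1 group.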
